A study of Mus musculus with 84 samples.

Results

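The alpha-arrestins Arrdc1, Arrdc2, Arrdc3, Arrdc4 and Txnip were followed across liver and epididymal white adipose tissue (eWAT) of mice with diet-induced obesity (DIO) that received a dual agonist of the glucagon receptor (GCGR) and the glucagon-like peptide-1 receptor (GLP-1R), a selective GLP-1R agonist or vehicle. The 5 genes were taken by symbol from the 48794 Ensembl identifiers listed in each tissue. The family was chosen by the fitted Arrdc3 changes against vehicle in an earlier look at these data, downward in liver under the dual agonist and different in fat, so all Arrdc3 values below are a description without a test. The other 4 genes were tested among all genes. The 84 libraries came from male C57BL/6J mice on a high-fat diet, 42 from liver and 42 from eWAT, with 6 libraries in each of 7 groups per tissue. The groups were vehicle, the dual agonist BI456906 at 3, 10, 20 or 30 nmol/kg, and semaglutide at 20 or 100 nmol/kg. By the study's methods, the mice were 22 weeks old at the start and were dosed subcutaneously each day for 30 days, so every group shared the strain, the diet and the injections. The labels do not say which liver and eWAT libraries came from the same mouse.

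Alpha-arrestins are adaptor proteins with an arrestin fold. Most carry short proline-rich motifs in their tail that bind ubiquitin ligases of the NEDD4 family, and they bring these ligases to receptors and transporters at the cell surface so that the cargo is ubiquitinated and taken up. Txnip, the best studied member, also binds thioredoxin and restrains glucose uptake through glucose transporters, and its gene, like Arrdc4, is a classic target of the glucose-sensing factors MondoA (Mlxip) and ChREBP (Mlxipl). Arrdc3 has been linked to receptor trafficking and to obesity, Arrdc1 to the budding of vesicles from the plasma membrane, and Arrdc2 is less studied. In liver and fat these genes are known for responding to feeding state.

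The upstream windows of 4 members are shown because Arrdc2, Arrdc3 and Txnip varied together in eWAT (below), whereas Txnip and Arrdc4 are the textbook carbohydrate-responsive pair. Each is the RefSeq window of up to 250 bases before an annotated start on GRCm38.p6, 5′ to 3′ on the strand of the gene, and capitals mark matches to a motif searched on both strands. RefSeq windows were found for all 5 genes. Those printed are chr3:96557707-96557956 on the plus strand for Txnip, chr7:68749242-68749488 on the minus strand for Arrdc4, chr8:70839721-70839970 on the minus strand for Arrdc2 and chr13:80883134-80883383 on the plus strand for Arrdc3.
Txnip: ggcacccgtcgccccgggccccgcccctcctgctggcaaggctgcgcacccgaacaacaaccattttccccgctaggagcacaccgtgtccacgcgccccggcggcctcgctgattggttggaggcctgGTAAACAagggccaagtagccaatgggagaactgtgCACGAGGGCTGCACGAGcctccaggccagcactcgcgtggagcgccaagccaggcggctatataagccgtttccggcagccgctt
Arrdc4: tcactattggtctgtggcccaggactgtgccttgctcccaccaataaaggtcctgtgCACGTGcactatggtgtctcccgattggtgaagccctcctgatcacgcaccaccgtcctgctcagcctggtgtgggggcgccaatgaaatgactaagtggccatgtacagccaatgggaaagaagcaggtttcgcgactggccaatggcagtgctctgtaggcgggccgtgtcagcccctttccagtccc
Arrdc2: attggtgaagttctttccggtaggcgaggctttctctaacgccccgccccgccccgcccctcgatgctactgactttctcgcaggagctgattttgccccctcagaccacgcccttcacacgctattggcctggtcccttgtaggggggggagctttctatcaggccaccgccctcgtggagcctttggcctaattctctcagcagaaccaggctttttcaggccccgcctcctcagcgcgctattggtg
Arrdc3: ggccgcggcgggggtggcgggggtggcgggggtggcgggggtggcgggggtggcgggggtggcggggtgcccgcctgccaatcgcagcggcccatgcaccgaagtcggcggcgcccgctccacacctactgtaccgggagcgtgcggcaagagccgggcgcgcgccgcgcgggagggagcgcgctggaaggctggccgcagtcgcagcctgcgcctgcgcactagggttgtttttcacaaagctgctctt
The Txnip window held a pair of CACGNG boxes separated by 5 bases, the form of a carbohydrate response element, from 85 to 69 bases before the start. This spaced pair was present in 15 of 32851 RefSeq windows of the same length (0.0457%). Txnip also held GTAAACA, a FoxO-type motif found in 3.17% of windows, from 121 to 115 bases before the start. In Arrdc4 the E-box CACGTG, whose letters also fulfil CACGNG, lay 193 to 188 bases before the start, and 6.02% of windows held one. The Arrdc4 window did not hold the spaced pair. Its printed form leaves out the 3 bases next to this start, which lie inside the annotated gene. The Arrdc2 window and the Arrdc3 window shown held none of the motifs searched, which also included the cAMP element TGACGTCA (1.55% of windows), its core TGACG (17.8%), and the glucocorticoid receptor palindrome AGAACA, 3 bases, TGTTCT (0.00913%). The Arrdc1 window also had no match, and 1 of the 2 further Arrdc3 starts listed, inside the gene, had a TGACG core. The Arrdc3 window was the richest in G and C of those of the 5 genes, at 76% against a median of 52.4% over all windows. These matches describe letters and say nothing on binding.

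By GENCODE M21 on GRCm38, Arrdc1 (ENSMUSG00000026972) lies on chromosome 2 from 24925352 to 24935252 on the minus strand, Arrdc2 (ENSMUSG00000002910) on chromosome 8 from 70835129 to 70839720 on the minus strand, Arrdc3 (ENSMUSG00000074794) on chromosome 13 from 80883384 to 80896042 on the plus strand, Arrdc4 (ENSMUSG00000042659) on chromosome 7 from 68736995 to 68749241 on the minus strand and Txnip (ENSMUSG00000038393) on chromosome 3 from 96557957 to 96561883 on the plus strand. Txnip shares 606 exon bases with the antisense gene Gm15441. The strand setting used for counting is not given in the sources used here, so reads from these shared bases may have gone to either gene.

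The libraries held 21676902 to 53869104 reads in liver (median 43179390) and 37573004 to 53996914 in eWAT (median 46475069). All 5 members passed the filter on low values in both tissues, with at least 98 reads in each library. The related gene Arrdc5 had 0 reads in all 84 libraries, which allows 0.0556 to 0.138 CPM at the limit of 3 reads a library, for counting error only. Hepatocyte markers (5 genes, Alb among them) summed to 64535 TPM or more in every liver library, and adipocyte markers (5 genes, Adipoq among them) to 10507 TPM or more in every eWAT library, so both tissues carried their defining transcripts. Of the 42 eWAT libraries, 8 also had hepatocyte markers summing to over 1000 TPM. These were 4 of the 6 vehicle libraries (up to 5439 TPM), 2 at 3 nmol/kg and 1 at 10 nmol/kg of BI456906, and 1 at 100 nmol/kg of semaglutide. Results in eWAT are therefore also given without these 8, which leaves 2 vehicle libraries. The limit of 1000 TPM was set after the data were seen. Libraries under it were kept, with sums of up to 914 TPM at 30 and 501 TPM at 20 nmol/kg BI456906.

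In vehicle-treated mice Txnip was the most abundant member in both tissues per transcript length (TPM). Its level in liver was 129 ± 21.7 TPM (SD, n = 6), followed by Arrdc3 at 22.6 ± 3.63, Arrdc2 at 13.6 ± 2.11, Arrdc4 at 5.68 ± 0.730 and Arrdc1 at 5.45 ± 1.24 TPM. Of these neighbours only Arrdc4 and Arrdc1 overlapped. In eWAT the TPM levels were 1202 ± 193 for Txnip, 50.3 ± 5.53 for Arrdc3, 45.6 ± 7.46 for Arrdc1, 18.1 ± 1.56 for Arrdc2 and 16.4 ± 4.26 for Arrdc4. There, Arrdc3 overlapped Arrdc1, and Arrdc2 overlapped Arrdc4. Txnip thus stood at the 99.57th percentile of eWAT genes above 0. Mean levels in TPM were higher in eWAT than in liver by 9.32-fold for Txnip, 8.36-fold for Arrdc1, 2.89-fold for Arrdc4 and 2.22-fold for Arrdc3, without overlap of the libraries, and by 1.33-fold for Arrdc2, where they overlapped. The tissues were normalized as separate tables, so these ratios were not tested.

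In liver, Arrdc3 was lower at the 2 higher doses of BI456906 and its intervals included 0 under semaglutide. With vehicle the 6 libraries ranged from 18.5 to 28.1 TPM with a median of 21.3. At 30 nmol/kg BI456906 they ranged from 5.57 to 7.99 TPM (median 6.57), and at 20 nmol/kg from 5.22 to 18.3 TPM (median 9.68). All 6 libraries of either dose lay below every vehicle library, and the spread was narrowest at 30 nmol/kg, with an SD of 0.885 TPM. At 10 nmol/kg the range was 10.5 to 27.1 TPM (median 22.1) and at 3 nmol/kg 13.3 to 35.5 TPM (median 23.3), where 2 and 1 libraries lay below all vehicle libraries and 0 and 1 above. The semaglutide groups ranged from 13.02 to 34.6 TPM (median 20.3) at 20 nmol/kg and from 10.4 to 59.2 TPM (median 27.6) at 100 nmol/kg, with libraries both below and above all vehicle libraries at each dose. In the fitted model Arrdc3 differed from vehicle by −0.10 (SE 0.28), −0.41 (SE 0.28), −1.52 (SE 0.29) and −2.04 (SE 0.30) on the log2 scale at 3, 10, 20 and 30 nmol/kg BI456906. The last of these is 4.12-fold lower, with a 95% interval from −2.65 to −1.44. For semaglutide it was −0.24 (SE 0.28, 95% interval −0.81 to 0.34) at 20 and 0.10 (SE 0.28, −0.47 to 0.68) at 100 nmol/kg. Between 30 nmol/kg BI456906 and 100 nmol/kg semaglutide the log2 difference was −2.15 (SE 0.30), and the libraries did not overlap. At the equal dose of 20 nmol/kg the difference was −1.29 (SE 0.29), and the libraries overlapped. Over the BI456906 doses, vehicle included, the slope was −0.73 (SE 0.086) log2 units per 10 nmol/kg. Across all liver genes 29.4% had TPM ranges that did not overlap between 30 nmol/kg BI456906 and vehicle, and 19.3% at 20 nmol/kg, and 2.94% did not overlap between 30 nmol/kg BI456906 and 100 nmol/kg semaglutide; as Arrdc3 was chosen for this contrast, nothing is read from its place among them. In the same libraries the 5 hepatocyte markers summed to 80386 to 93607 TPM at 30 nmol/kg and to 64535 to 76858 TPM with vehicle (4 of 5 passed as higher and 1 as lower, none at 0 in all libraries); their part in the result was not tested. In bulk tissue, fewer cells of a type and less RNA per cell cannot be told apart.

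**Figure D1:**
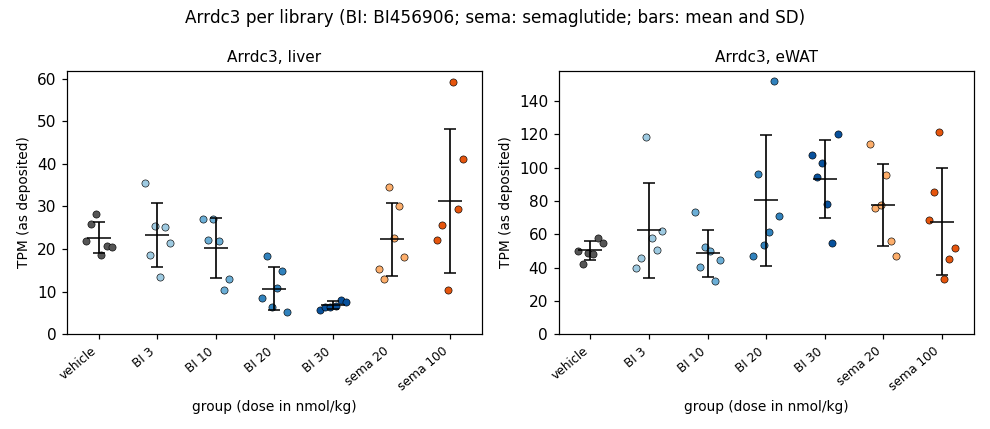
Arrdc3 level in TPM (y axis) in each library of liver (left) and eWAT (right) by group (x axis, dose in nmol/kg; BI is BI456906 and sema is semaglutide); points are libraries, bars are the mean and SD of 6 libraries. In liver the 30 nmol/kg BI456906 libraries sit between 5.57 and 7.99 TPM, below all vehicle libraries, whereas in eWAT 5 of 6 at this dose sit above all vehicle libraries.

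In eWAT, Arrdc3 was higher than with vehicle at 30 nmol/kg BI456906, the direction opposite to that in liver. Vehicle libraries ranged from 41.9 to 57.8 TPM (median 49.5), and those at 30 nmol/kg BI456906 from 54.8 to 120 TPM (median 98.6). Of these, 5 of 6 exceeded every vehicle library. At 20 nmol/kg the range was 46.7 to 152 TPM (median 66.3), with 4 of 6 above all vehicle libraries. At 10 nmol/kg it was 31.7 to 73.1 TPM (median 47.4) and at 3 nmol/kg 39.98 to 118 TPM (median 54.1). Semaglutide gave 47.1 to 114 TPM (median 76.6) at 20 nmol/kg and 33.1 to 121 TPM (median 60.0) at 100 nmol/kg, so that 4 and 3 of 6 libraries exceeded all vehicle libraries. Fitted against vehicle, the Arrdc3 difference in log2 units was 0.91 (SE 0.27, 95% interval 0.36 to 1.46) at 30 nmol/kg BI456906. At 20 nmol/kg it was 0.53 (SE 0.27, 95% interval −0.01 to 1.07). At 10 and 3 nmol/kg it was 0.01 (SE 0.26) and 0.25 (SE 0.26). For semaglutide it was 0.62 (SE 0.27, 0.08 to 1.16) at 20 and 0.40 (SE 0.26, −0.13 to 0.93) at 100 nmol/kg. Between 30 nmol/kg BI456906 and 100 nmol/kg semaglutide it was 0.51 (SE 0.28, 95% interval −0.05 to 1.07), and the libraries overlapped. Without the 8 libraries with hepatocyte transcripts, the value at 30 nmol/kg BI456906 was 0.78 (SE 0.41, 95% interval −0.05 to 1.61). The response of Arrdc3 in eWAT minus that in liver was 3.07 (SE 0.42) on the log2 scale at 30 nmol/kg, 2.14 (SE 0.41) at 20 nmol/kg, 0.48 (SE 0.40) at 10 nmol/kg and 0.38 (SE 0.40) at 3 nmol/kg BI456906. For semaglutide it was 0.93 (SE 0.40) at 20 and 0.35 (SE 0.40) at 100 nmol/kg. Thus the tissues diverged mainly at the upper BI456906 doses, which is what the gene was chosen for.

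Arrdc2 and Txnip were higher in eWAT of mice given 30 nmol/kg BI456906 than in vehicle-treated mice, and Arrdc1 and Arrdc4 did not pass the test there. Of the 4 genes tested, 2 passed (false discovery rate, FDR, at most 0.05 over all genes), against 23.9% of all eWAT genes. Arrdc2 ranged from 16.6 to 20.4 TPM in vehicle (median 17.9) and from 28.4 to 49.5 TPM at 30 nmol/kg BI456906 (median 34.9). All 6 treated libraries lay above all vehicle libraries, which held for 6.31% of genes in either direction. In log2 units Arrdc2 rose by 1.13 (SE 0.22, FDR = 3.32e-04). At 20 nmol/kg it ranged from 16.0 to 37.5 TPM (median 23.96) and at 10 nmol/kg from 16.7 to 22.2 TPM (median 18.4), with log2 fold changes of 0.43 (SE 0.22, FDR = 0.279) and 0.13 (SE 0.23, FDR = 0.807). The slope over the doses was 0.34 (SE 0.061) log2 units per 10 nmol/kg (FDR = 1.22e-04), where 29.5% of genes passed. Without the 8 libraries with hepatocyte transcripts 30 nmol/kg gave 1.16 in log2 units (SE 0.35, FDR = 0.0432) and the slope was 0.32 (FDR = 0.0176).

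Txnip, the thioredoxin-binding member, ranged in eWAT from 1002 to 1485 TPM with vehicle (median 1127) and from 1509 to 2272 TPM at 30 nmol/kg BI456906 (median 2056). The groups did not overlap. The rise amounted to 0.67 in log2 units (SE 0.19, FDR = 0.0110), and the slope was 0.23 (SE 0.055) per 10 nmol/kg (FDR = 0.00269). At 20 nmol/kg the libraries ranged from 1137 to 2215 TPM (median 1559), which is 0.32 in log2 units (SE 0.19, FDR = 0.352). Both Txnip calls rested on the full set of libraries: without the 8 with hepatocyte transcripts the rise was 0.57 (SE 0.30, FDR = 0.258) and the slope 0.20 (SE 0.076, FDR = 0.0856). The part of these libraries in the result was not tested beyond this comparison.

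**Figure D2:**
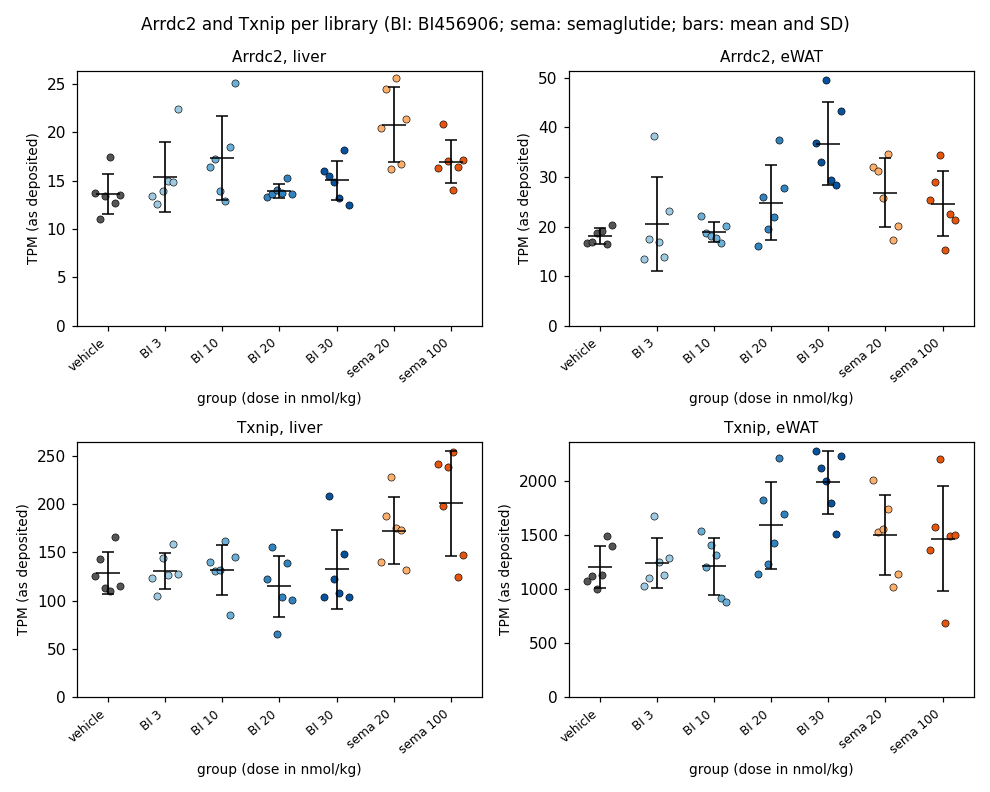
Arrdc2 (top) and Txnip (bottom) in TPM (y axis) in each library of liver (left) and eWAT (right) by group (x axis, dose in nmol/kg; BI is BI456906 and sema is semaglutide); points are libraries, bars the mean and SD of 6 libraries. In eWAT the 30 nmol/kg BI456906 libraries lie above all vehicle libraries for both genes, from 28.4 TPM for Arrdc2 and from 1509 TPM for Txnip. In liver every treated group overlaps the vehicle group for both genes.

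Against vehicle, none of the 4 tested genes passed in eWAT under semaglutide, where 6.33% of genes passed at 20 and 14.9% at 100 nmol/kg. Arrdc2 came closest, with 17.2 to 34.6 TPM (median 28.5) and 0.61 in log2 units (SE 0.22, FDR = 0.0894) at 20 nmol/kg, and 15.3 to 34.4 TPM (median 23.97) and 0.53 (SE 0.22, FDR = 0.0975) at 100 nmol/kg. It passed at 20 nmol/kg with DESeq2 (FDR = 0.0384) and with quality weights (FDR = 0.0169). Arrdc1, the vesicle-budding member, held between 34.04 and 61.4 TPM over all 42 eWAT libraries, and its log2 fold changes over the 6 treatments lay between −0.14 and 0.11. Arrdc4 ranged from 11.6 to 24.2 TPM with vehicle, and every treated library lay inside this range. Its log2 fold changes over the treatments lay between −0.25 and 0.02. At 3, 10 and 20 nmol/kg BI456906 no member passed either, against backgrounds of 0.00539%, 0.513% and 4.27% of genes. These backgrounds depended on the fit: at 10 nmol/kg 95 genes passed but 2638 with quality weights and 0 with the compared groups alone, and at 20 nmol/kg 792 passed but 1980 with DESeq2 and 72 without the 8 libraries. Directly compared, none of the 4 tested genes passed between 30 nmol/kg BI456906 and 100 nmol/kg semaglutide in eWAT, a contrast in which 2 genes in all (0.0108%) passed; the 95% interval of the Arrdc2 difference ran from 0.18 to 1.02 (FDR = 0.104) and that of Txnip from 0.08 to 0.87 (FDR = 0.144). The count of genes here ranged from 0 without the 8 libraries through 302 with edgeR and 967 with DESeq2 to 6774 with quality weights. With quality weights Arrdc2 (0.61, FDR = 0.00365), Txnip (0.49, FDR = 0.00543) and Arrdc1 (−0.30, FDR = 0.0127) also passed, and they did so under no other alternative. At the equal dose of 20 nmol/kg 0 of 18536 genes passed (0%) with limma, 815 had an unadjusted p under 0.05, and DESeq2 called 4, edgeR 0 and limma with quality weights 6.

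In liver, none of the 4 tested genes passed at any dose of BI456906, although 58.8% of all genes did so at 30 nmol/kg, 45.9% at 20, 37.5% at 10 and 13.4% at 3 nmol/kg. The last of these shares was the least stable, with 2138 genes passing but 3 with the compared groups alone. None passed in the slope over the doses either, where 58.9% of genes did. At 30 nmol/kg the log2 fold changes were −0.29 for Arrdc1 (95% interval −0.56 to −0.01, FDR = 0.0662), 0.12 for Arrdc2 (−0.16 to 0.39, FDR = 0.473), −0.23 for Arrdc4 (−0.55 to 0.09, FDR = 0.207) and −0.06 for Txnip (−0.42 to 0.30, FDR = 0.786), whose sign turned on the log2(TPM) scales and with quality weights. Txnip ranged from 110 to 166 TPM with vehicle (median 121) and from 104 to 208 TPM at 30 nmol/kg (median 115). Of the treated libraries 3 lay below and 1 above all vehicle libraries, and the groups also overlapped for the other 3 genes.

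Some of the tested members passed in liver under semaglutide. Among all liver genes 46.5% passed at 20 and 48.2% at 100 nmol/kg, so the count of members is no result about the family. Txnip was higher at 100 nmol/kg, from 124 to 254 TPM (median 219), with 4 of 6 libraries above all vehicle libraries and a rise of 0.48 in log2 units (SE 0.18, FDR = 0.0282), where 48.2% of genes passed. At 20 nmol/kg it ranged from 132 to 228 TPM (median 174), with 0.28 (SE 0.18, FDR = 0.205). The groups given 30 nmol/kg BI456906 and 100 nmol/kg semaglutide differed in Txnip by −0.54 (SE 0.18, 95% interval −0.91 to −0.17), which missed the threshold (FDR = 0.0513, 9.75% of genes passed) but passed under 7 of 12 alternatives, edgeR (FDR = 0.0485) and DESeq2 (FDR = 0.0316) among them. Arrdc2 was higher at 20 nmol/kg semaglutide, from 16.2 to 25.6 TPM (median 20.9) against 11.0 to 17.4 TPM (median 13.5) with vehicle. Here 4 of 6 libraries exceeded all vehicle libraries, and the rise was 0.59 in log2 units (SE 0.13, FDR = 4.06e-04, 46.5% of genes passed). At the equal dose of 20 nmol/kg, BI456906 left Arrdc2 between 13.3 and 15.3 TPM (median 13.7), below all semaglutide libraries, and the difference was −0.64 (SE 0.13, FDR = 0.00383). In this contrast 2.42% of genes passed and 1.69% had no overlap.

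Arrdc4, the other carbohydrate-responsive member, was lower at 20 nmol/kg semaglutide in liver, from 3.63 to 4.93 TPM (median 4.26) against 4.61 to 6.36 TPM (median 6.00) with vehicle. Of the treated libraries 4 of 6 lay below all vehicle libraries, and the log2 difference was −0.51 (SE 0.16, FDR = 0.00983, 46.5% of genes passed). At 100 nmol/kg it was −0.17 (SE 0.15, FDR = 0.371), so the larger dose showed the smaller value. Compared directly at 20 nmol/kg, BI456906 minus semaglutide was 0.49 for Arrdc4 (SE 0.16) and missed the threshold (FDR = 0.0987). This difference passed with DESeq2 (FDR = 0.0242) and with quality weights (FDR = 0.0164). Arrdc1 was also lower at 20 nmol/kg semaglutide, with −0.33 on the log2 scale (SE 0.14, FDR = 0.0454), with 3.85 to 5.28 TPM (median 5.00) against 3.89 to 6.96 TPM (median 5.82). This call lay close to the threshold in the main fit and was lost under 6 of 12 alternatives. Among them was the fit without the shallowest liver library, which belongs to this group (FDR = 0.0559). With limma on log2(TPM + 1) and log2(TPM + 0.1) the values were −0.12 (FDR = 0.480) and −0.14 (FDR = 0.491). The 2 compounds at 20 nmol/kg were not shown to differ in Arrdc1 (0.18, SE 0.14, FDR = 0.609). The antisense gene Gm15441, which shares exon bases with Txnip, rose in liver at 30 nmol/kg BI456906 (log2 fold change 1.88, SE 0.83, FDR = 0.0486) and at 100 nmol/kg semaglutide (2.26, SE 0.81, FDR = 0.0196). Its level went from 1.34 to 2.95 TPM with vehicle to between 1.59 and 37.5 TPM at 100 nmol/kg semaglutide. In reads, it reached at most 1704 per liver library against at least 4672 for Txnip. The share of reads that may have passed between the pair was not tested.

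**Figure D3:**
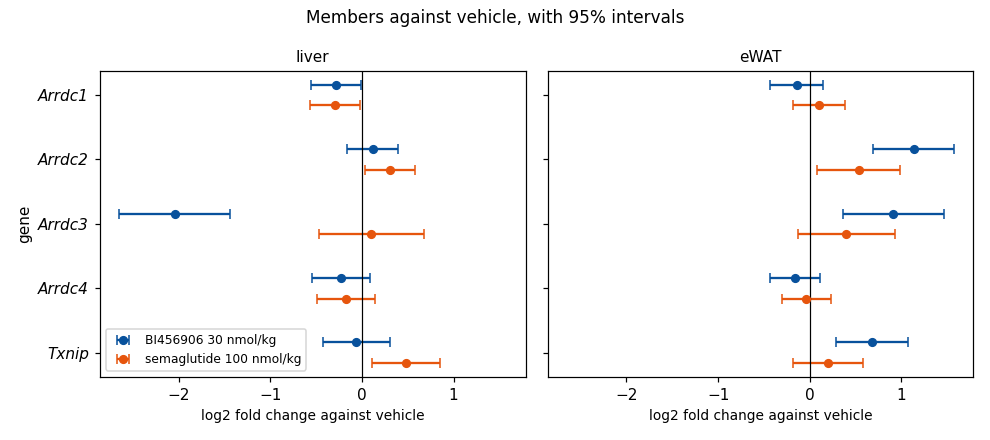
Log2 fold change against vehicle (x axis) of the 5 genes (y axis) in liver (left) and eWAT (right), at 30 nmol/kg BI456906 and 100 nmol/kg semaglutide; points are model estimates and bars their 95% intervals. Arrdc3 stands at −2.04 in liver and 0.91 in eWAT under BI456906, and Arrdc2 and Txnip lie above 0 in eWAT at 1.13 and 0.67.

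The tissues were then compared in 1 model of all 84 libraries, which asked whether the response to treatment differed between eWAT and liver. At 30 nmol/kg BI456906 the response of Arrdc2 in eWAT exceeded that in liver by 1.12 on the log2 scale (SE 0.27, FDR = 3.62e-04) and that of Txnip by 0.84 (SE 0.28, FDR = 0.00898). In this contrast 45.9% of genes passed. For Arrdc1 (0.25, FDR = 0.408) and Arrdc4 (0.18, FDR = 0.517) the response was not shown to differ between tissues. No tested member passed at 3, 10 or 20 nmol/kg BI456906 or at either semaglutide dose. Of all genes 3.37%, 26.7% and 31.9% passed at these BI456906 doses, and 31.8% and 33.9% at 20 and 100 nmol/kg semaglutide. Txnip at 20 nmol/kg BI456906 came closest (0.66, SE 0.27, FDR = 0.0537), and with edgeR it passed (FDR = 0.0444), as did Arrdc2 (FDR = 0.0492). With quality weights Arrdc1 passed at 10 nmol/kg BI456906 (0.55, FDR = 0.00611). It also passed with these weights at 20 nmol/kg (0.50, FDR = 0.00952) and 100 nmol/kg semaglutide (0.48, FDR = 0.0193). Without the 8 eWAT libraries the Arrdc2 difference at 30 nmol/kg was 1.04 (FDR = 0.0131) and that of Txnip 0.63 (FDR = 0.178).

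Genes that work with or alongside the alpha-arrestins were described next. In liver, 52 of the 70 pathway genes tested (74.3%) passed at 30 nmol/kg BI456906, against 58.8% of all genes, and 45 (64.3%) at 100 nmol/kg semaglutide, against 48.2%. Both compounds were compared with the same vehicle libraries. Of the NEDD4-family ligases, the partners of alpha-arrestins, 6 of 8 tested were higher and 2 lower at 30 nmol/kg BI456906. Hecw2 rose by 1.78 (SE 0.18), Itch by 0.80 (SE 0.10) and Smurf2 by 0.51 (SE 0.09) on the log2 scale, and Smurf1 changed by −0.61 (SE 0.09). At 100 nmol/kg semaglutide 6 were higher and 1 lower. The list median was 0.27 against −0.03 for all genes under BI456906, and 0.30 against −0.02 under semaglutide. In the thioredoxin system, Txn1, the cytosolic thioredoxin that Txnip binds, fell by 0.64 (SE 0.06), Txn2 fell by 0.21 (SE 0.06) and the reductase Txnrd1 rose by 0.16 (SE 0.06). With semaglutide 2 of these 5 genes were lower and 0 higher. The share of the thioredoxin list passing under BI456906 was near the 58.8% of all genes, so it is no result about the list. None of the 3 tested beta- and visual arrestins passed under either compound in either tissue.

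Among membrane proteins known as cargo of alpha-arrestins, and related receptors, 4 of 10 tested were higher and 2 lower in liver at 30 nmol/kg BI456906, and 4 were higher and 3 lower at 100 nmol/kg semaglutide. The share passing under BI456906, 6 of 10, was near the 58.8% of all liver genes, so it is no result about the list. The epidermal growth factor receptor Egfr rose by 1.75 (SE 0.30), the insulin receptor Insr by 0.70 (SE 0.10) and the beta-1 adrenergic receptor Adrb1 by 0.60 (SE 0.23), whereas the liver glucose transporter Slc2a2 changed by −0.70 (SE 0.13), all on the log2 scale. Glp1r, Hecw1 and the cone arrestin Arr3 did not pass the filter on low values in either tissue, and nor did Arrdc5.

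The glucose-sensing factors and carbohydrate-responsive genes mostly fell in liver. Of 14, 9 were lower and 2 higher at 30 nmol/kg BI456906, with a median of −0.38, and 8 were lower and 1 higher at 100 nmol/kg semaglutide, with a median of −0.32. Among all liver genes 58.8% and 48.2% passed in these contrasts. The lipogenic gene Thrsp changed by −3.00 (SE 0.42), Pklr, which encodes liver pyruvate kinase, by −2.50 (SE 0.20), and the fatty acid elongase Elovl6 by −2.01 (SE 0.27). Mlxip itself rose by 1.06 (SE 0.16). Txnip and Arrdc4, the members regarded as targets of the same factors, had −0.06 and −0.23 in this contrast and did not pass.

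**Figure D4:**
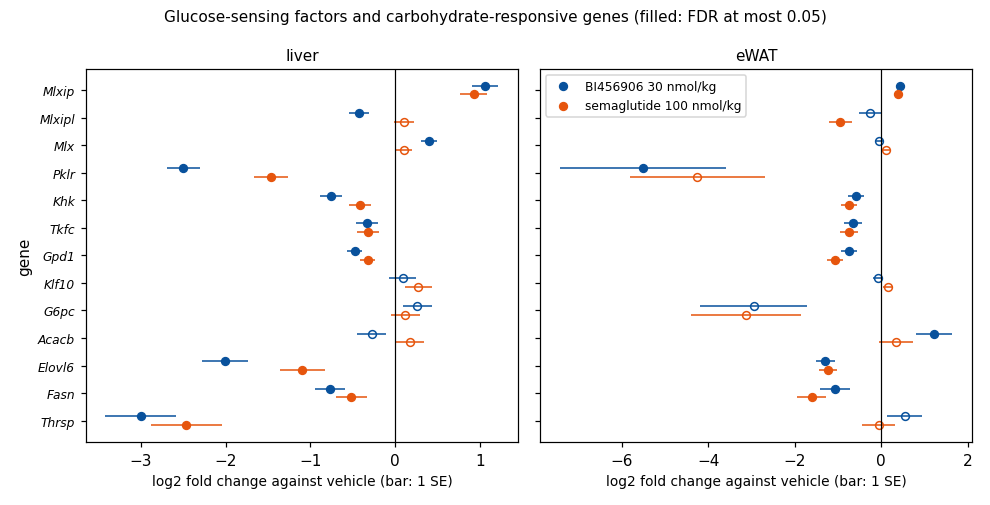
Log2 fold change against vehicle (x axis, bars are 1 SE) of 13 of the 14 glucose-sensing and carbohydrate-responsive genes (y axis) in liver (left) and eWAT (right), at 30 nmol/kg BI456906 and 100 nmol/kg semaglutide; filled points passed the test. In liver most points under BI456906 lie below 0, with Thrsp lowest at −3.00; the 2 panels have different x scales, and in eWAT Pklr has a wide error.

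Of 12 cAMP-responsive genes 8 were higher and 0 lower at 30 nmol/kg BI456906 (median 1.01), and 5 were higher and 1 lower at 100 nmol/kg semaglutide (median 0.32). Among all liver genes 58.8% passed in the first of these contrasts and 48.2% in the second. The shares of the cAMP-responsive list passing were near these, so they are no result about the list. Tat, a tyrosine-degrading enzyme, rose by 2.84 (SE 0.26), the nuclear receptor Nr4a1 by 2.77 (SE 0.73) and the coactivator Ppargc1a by 1.92 (SE 0.14). The clock gene Per1, which is also on the glucocorticoid list, rose by 1.89 (SE 0.19). Of 9 glucocorticoid-responsive genes 8 were higher under each compound, with medians of 1.89 and 1.12, led under BI456906 by the metallothionein Mt2 (4.10, SE 0.48), the chaperone Fkbp5 (2.33, SE 0.44), the cell cycle inhibitor Cdkn1a (2.29, SE 0.40) and the transcription factor Zbtb16 (2.08, SE 0.35). Of 10 FoxO and insulin-responsive genes 6 were higher and 3 lower at 30 nmol/kg BI456906 (median 0.68). Igfbp1, which binds insulin-like growth factors, rose by 2.17 (SE 0.32), the insulin receptor substrate Irs2 by 1.19 (SE 0.20) and the transcription factor Foxo1 by 0.98 (SE 0.12), and the lipogenic factor Srebf1 changed by −1.11 (SE 0.21). At 100 nmol/kg semaglutide 6 were higher and 1 lower (median 0.51).

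In eWAT 31 of the 70 genes (44.3%) passed at 30 nmol/kg BI456906, against 23.9% of all eWAT genes, and 22 (31.4%) at 100 nmol/kg semaglutide, against 14.9%. The share over all genes was thus also lower than in liver. Without the 8 libraries with hepatocyte transcripts 10 and 7 passed. The glucocorticoid-responsive list had the largest share of calls. At 30 nmol/kg BI456906 8 of 9 were higher (median 1.20 against −0.03 for all genes), and 6 passed without the 8 libraries. Fkbp5 rose by 2.26 (SE 0.44), Zbtb16 by 1.99 (SE 0.44), Tsc22d3, a mediator of glucocorticoid action, by 1.31 (SE 0.25) and Mt2 by 1.24 (SE 0.33). At 100 nmol/kg semaglutide 6 of 9 were higher (median 0.63 against 0.01 for all genes), and 3 passed without the 8 libraries. Of the 12 genes of the cAMP-responsive list 2 were higher, Ppargc1a (1.15, SE 0.36) and Per1 (0.98, SE 0.16), and Pde4b, a phosphodiesterase, was lower (−0.76, SE 0.23). The share of this list passing was near the 23.9% of all eWAT genes, so it is no result about the list. Without the 8 libraries 1 of these 12 passed, and with semaglutide 2 were higher and 0 lower.

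Of the cargo list in eWAT 2 were higher and 1 lower at 30 nmol/kg BI456906. Egfr rose by 0.79 (SE 0.17), and Slc2a2 changed by −3.31 (SE 0.73). With semaglutide 1 was higher and 2 lower, and without the 8 libraries 1 and 0 of the 10 passed under the respective compounds. The carbohydrate-responsive list had 7 lower and 2 higher of 14 under BI456906 (median −0.62), and 7 lower and 1 higher under semaglutide (median −0.85). Its largest value was that of Pklr at −5.52 (SE 1.92). Without the 8 libraries 1 and 2 of the 14 passed under the respective compounds. Elovl6 changed by −1.29 (SE 0.21) and Acacb, which makes malonyl-CoA at mitochondria, by 1.22 (SE 0.42). Slc2a2 and Pklr encode the liver glucose transporter and liver pyruvate kinase. Hepatocyte markers summed to over 1000 TPM in 4 of 6 vehicle libraries and in 0 of 6 at 30 nmol/kg BI456906. The median log2 fold change of the 5 hepatocyte markers in eWAT at this dose was −3.31. The part of hepatocyte transcripts in the Slc2a2 and Pklr values was not tested.

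Among the NEDD4-family ligases in eWAT Hecw2 rose by 0.84 (SE 0.24) at 30 nmol/kg BI456906, and Nedd4l and Wwp1 each changed by −0.43 (SE 0.11 and 0.13). With semaglutide 0 were higher and 1 lower, and without the 8 libraries 0 of 8 passed under either compound. Txnrd3 was the only gene of the thioredoxin system to pass (0.38, SE 0.11, 0 of 5 without the 8 libraries), with 0 of 5 under semaglutide. This share under BI456906 was near the 23.9% of all eWAT genes, so it is no result about the thioredoxin list. Of the FoxO and insulin-responsive list 3 were higher and 2 lower. Foxo1 rose by 0.77 (SE 0.19), Irs2 by 0.68 (SE 0.22), and Sesn3, a stress-induced regulator of growth signalling, changed by −0.99 (SE 0.16). With semaglutide 1 was higher and 2 lower, and without the 8 libraries 2 of the 10 passed under each compound.

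The members also differed in how they varied from library to library. Over the 42 eWAT libraries Arrdc3 followed Txnip (Pearson r 0.898, Spearman rho 0.891) and Arrdc2 (r 0.884), and Arrdc2 followed Txnip (r 0.842). Arrdc1 and Arrdc4 formed the other pair (r 0.807), and Arrdc1 ran against Txnip (r −0.701) and Arrdc3 (r −0.683). These values changed little when each library was taken as its deviation from the group mean, at 0.876, 0.860, 0.775, 0.845, −0.714 and −0.698. In liver the pairs were weaker. The strongest were Arrdc2 with Arrdc4 at −0.580 and Arrdc3 with Txnip at 0.428, or −0.435 and 0.301 within groups. All these points share libraries, depth and tissue composition, and the correlations are given as a description.

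In eWAT the levels also moved with markers of several cell types, whose sums share the same libraries. The summed TPM of 5 macrophage markers (Adgre1, Cd68, Csf1r, Lyz2 and Mrc1) ran with Arrdc1 at r 0.933 and Arrdc4 at r 0.751, and against Txnip at −0.707, Arrdc3 at −0.691 and Arrdc2 at −0.489. Within groups the values were 0.936, 0.846, −0.718, −0.744 and −0.523. With 5 adipocyte markers the signs were the reverse, at −0.894 for Arrdc1, −0.794 for Arrdc4, 0.679 for Arrdc3, 0.654 for Txnip and 0.440 for Arrdc2. With 4 endothelial markers the values were near those with adipocyte markers, at −0.855 for Arrdc1, −0.676 for Arrdc4, 0.639 for Arrdc3, 0.632 for Txnip and 0.428 for Arrdc2, and with 2 erythroid markers they were −0.732, −0.640, 0.441, 0.466 and 0.268. For T and B cell markers they lay between −0.354 and 0.572, and for the hepatocyte, mesothelial, fibroblast and stellate, and epididymis lists between −0.296 and 0.336. The macrophage sum ranged from 2906 to 8027 TPM with vehicle (median 6171) and from 3394 to 8165 TPM at 30 nmol/kg BI456906 (median 4060). The adipocyte sum ranged from 17133 to 33069 TPM (median 19284) and from 15462 to 28606 TPM (median 26713) in the same groups. No macrophage marker and 1 adipocyte marker, which was lower, passed in that contrast. Of the other markers, 3 of 3 mesothelial genes were higher (sum 2.95 to 101 TPM with vehicle and 39.4 to 150 TPM with 30 nmol/kg BI456906) and 2 of 5 hepatocyte markers were lower. Of the remaining lists 1 of 4 T and B cell markers was lower, 1 of 5 fibroblast and stellate markers was higher, and 0 of 4 endothelial and 0 of 2 erythroid markers passed. No marker of the macrophage, adipocyte, mesothelial and hepatocyte lists was at 0 in all libraries. The part of cell composition in the member values was not tested. In liver, Arrdc1 ran with 5 fibroblast and stellate cell markers at r 0.757 (0.729 within groups), and 4 of these 5 markers were lower and 1 higher at 30 nmol/kg BI456906, where the sum was 118 to 191 TPM against 137 to 288 TPM with vehicle.

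**Figure D5:**
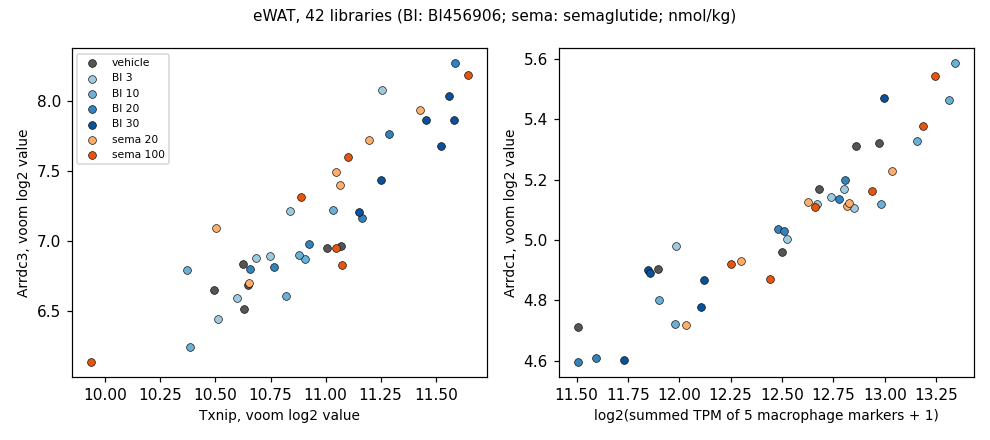
Left, Arrdc3 against Txnip in the 42 eWAT libraries (both axes in voom log2 values); right, Arrdc1 (y axis, voom log2 value) against the log2 of the summed TPM of 5 macrophage markers plus 1 (x axis). Points are libraries coloured by group (dose in nmol/kg); the pairs have Pearson r 0.898 and 0.933, and in the left panel the vehicle libraries lie towards the lower end and the 30 nmol/kg BI456906 libraries towards the upper end.

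The genes most like Arrdc3 differed between tissues. Among 14284 eWAT genes these were Lpin1, a phosphatidate phosphatase, at r 0.946, Foxo1 at 0.944, Syde2 at 0.944, Adgrg1 at 0.940 and 4931406P16Rik at 0.939, and the most opposed were Rab3il1 at −0.912 and Rbpj, the Notch pathway factor, at −0.889. Within groups these values lay between 0.922 and 0.940 and at −0.917 and −0.879. For Txnip in eWAT they were Galnt15 at 0.942, Mindy4 at 0.941, Ppp2r3a at 0.941, Syde2 at 0.935 and Pdk2, which restrains pyruvate oxidation, at 0.934, with Rbpj at −0.925 and Edem1 at −0.923. Syde2 and Rbpj were thus named for both.

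Among 11820 liver genes, Arrdc3 was most like Ugt1a6b at r 0.830, Mospd2 at 0.822, the complement gene C1s1 at 0.805, Rarres1 at 0.793 and the defensin Defb1 at 0.789, and most opposed to Rasgef1b at −0.824 and the fumarase gene Fh1 at −0.822. These fell to between 0.165 and 0.462 for the first 5, and to −0.471 and −0.395 for the others, within groups, so the likeness in liver lay largely between the groups. Mean Rarres1 was 92.3 TPM in vehicle livers against 7.35 TPM in those given 30 nmol/kg BI456906, and mean Rasgef1b was 5.40 against 24.9 TPM. Both genes were picked by their correlation with Arrdc3, so these directions follow from the choice. For Txnip in liver the genes were E2f8 at 0.730, Ergic2 at 0.720, Mup7 at 0.719, Pabpc1 at 0.705 and Nlrp12 at 0.700, with Mmd2 at −0.677 and Rcan2 at −0.664. Over these genes the values within groups were 0.537 to 0.655, and −0.493 and −0.658. Mup7 belongs to a family of near-identical genes whose reads may be split between copies.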

How the data were processed

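Liver and eWAT RNA of 84 mouse libraries was sequenced, and the authors deposited, per tissue, a table of read counts divided by 1 size factor per library (a signal of normalized counts) and a table of TPM. The submitters' processing notes name STAR 2.5.2b, RSEM 1.3.0, featureCounts 1.5.1 and FastQC 0.11.5 on mm10/GRCm38. The labels and the study's methods describe different library kits and read layouts, and the strand used in counting is not given in the sources used here. Whole reads were recovered from the steps of the deposited values (100% of values whole within a relative tolerance of 1e-06). Of 48794 identifiers, 48348 were paired with a symbol. Nothing in the labels says how the 6 libraries of a group were collected beyond that they are separate samples, so p-values measure the spread between these libraries.

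The deposited normalized counts were analysed with limma 3.58.1 (voom, pseudocount 0.5) and TMM and filterByExpr of edgeR 4.0.16 in R 4.3.3, with all 7 groups of a tissue in 1 fit, which kept 15964 liver and 18536 eWAT genes. Benjamini-Hochberg FDR was taken over all genes kept. A gene passed at FDR at most 0.05. The slope was a linear contrast on dose, and the tissue difference came from 1 fit of the 84 libraries (15297 genes). Fold changes are log2 with SE, and levels are deposited TPM. Correlations used voom values of genes averaging at least 1 TPM in all libraries of a tissue.

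The members, gene lists and tests were chosen with earlier results of these data known. Named were the 5 members and Arrdc5, from each list and tissue up to 4 genes with the largest change among those past the threshold at 30 nmol/kg BI456906, list genes removed by the filter, and the 5 genes most and 2 least correlated with Arrdc3 and with Txnip. A few genes that this rule names are not reported here. Alternatives were RLE factors or library size alone, no filter or at least 10 counts in every library, recovered reads with voom, edgeR or DESeq2 1.42.0, limma on log2(TPM + 1) or log2(TPM + 0.1), quality weights and fits of the compared groups alone. After seeing the data, fits without 8 eWAT libraries and without the shallowest liver library were added. The main fit was also run on simulated counts with few changed genes in the 30 nmol/kg BI456906 group. In the liver data most genes passed at this dose, so the simulation cannot show how the fit behaves there.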

Additional observations from a re-analysis of the deposited data

Results flagged for a closer look

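Of 70 groups of 6 libraries, 5 had 1 library whose TPM stood apart from the others by more than Dixon's 95% critical value for 6 samples, and chance flags about 1 group in 20. In liver these were Arrdc1 at 20 nmol/kg semaglutide (library 73, 3.85 TPM, the lowest), Arrdc2 at 3 nmol/kg BI456906 (library 54, 22.4 TPM, the highest) and Arrdc2 at 20 nmol/kg BI456906 (library 65, 15.3 TPM, the highest). In eWAT they were Arrdc1 at 30 nmol/kg BI456906 (library 29, 52.9 TPM, the highest) and Arrdc3 at 3 nmol/kg BI456906 (library 9, 118 TPM, the highest).

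The responses of 2 members to 30 nmol/kg BI456906 differed between eWAT and liver by the interaction test, with Arrdc2 at 1.12 and Txnip at 0.84 on the log2 scale, the eWAT response being the higher. In this contrast 45.9% of all genes passed, so the count of members is no result about the family. The Txnip difference was 0.87 without a filter on low values (FDR = 0.0682) and 0.63 without the 8 eWAT libraries with hepatocyte transcripts (FDR = 0.178).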

How the results depend on the processing

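No paired analysis was possible because no library number is shared between groups and the labels do not tie liver and eWAT libraries to a mouse. Over 11 planned and 2 added alternatives, 264 of 288 comparisons for 24 tested values of the members kept their direction and their side of the threshold. These 24 were the contrasts of 30 nmol/kg BI456906 and 100 nmol/kg semaglutide against vehicle and the others that passed. Other contrasts that missed the threshold were not counted, and some of them passed under an alternative. Arrdc3 values have no test, and their spread over the alternatives is only described. At 30 nmol/kg BI456906 against vehicle they ran from −2.11 to −1.59 in liver and from 0.78 to 1.09 in eWAT. Of 480 comparisons for 40 counts of genes, 433 stayed within 1.5 times the count reported. Arrdc1 in liver at 30 nmol/kg BI456906 passed with library size alone (−0.35) and with quality weights (−0.38), which also brought Arrdc1 (−0.35) and Arrdc2 (0.36) in liver and Arrdc2 in eWAT (0.60) past it at 100 nmol/kg semaglutide. Arrdc2 in liver at that dose also passed with the compared groups alone (0.32) and without the shallowest library (0.31). Txnip in eWAT at 30 nmol/kg BI456906 no longer passed without the 8 libraries (0.57). Changes near 0 turned sign: Txnip in liver at 30 nmol/kg BI456906 to 0.0042 on log2(TPM + 1), 0.0040 on log2(TPM + 0.1) and 0.051 with quality weights, and Arrdc4 in eWAT on the 2 TPM scales to 0.020 and 0.023 at 30 nmol/kg BI456906 and to 0.065 and 0.070 at 100 nmol/kg semaglutide. Genes passing in eWAT at 30 nmol/kg BI456906 numbered 4432, and 7299 with quality weights and 1200 without the 8 libraries; list genes numbered 31, 48 and 10. At 100 nmol/kg semaglutide they numbered 2763, and 1043 with the compared groups alone and 835 without the 8 libraries; list genes numbered 22, 12 and 7. The causes were not tested.

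Limits: 4 of 6 eWAT vehicle libraries carried hepatocyte transcripts, so comparisons without them rest on 2. The direction split of all eWAT genes at 30 nmol/kg BI456906, 2014 higher and 2418 lower, was 2810 and 1807 with library size alone. The median tissue difference of all genes at that dose was 0.08 with TMM and −0.06 on log2(TPM + 1), where 2494 genes were higher and 3936 lower, against 3872 and 3145.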
